A study of Mus musculus with 23 samples.

Results

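Cdkn2a, Cdkn2b and Mtap are 3 neighbouring genes of mouse chromosome 4, and their RNA levels were followed through pancreatic ductal adenocarcinoma (PDAC) cells and organoids. They are 3 of the 27207 genes in the count table. They were found by symbol, and they were selected on their measured levels in all 6 groups of the study, above all on the difference between KPC and KC organoids. Their levels and differences are therefore given as a description, without a test. All 3 genes passed the filter on low counts that left 11144 tested genes, and tests are given only for other genes.

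The study grew branched organoids from single tumor cells and sequenced 23 bulk RNA libraries. KC and KPC cells came from pancreatic tumors of mice, whose Cre was driven from Ptf1a in KC (Ptf1aCre/+) and from Pdx1 in KPC (Pdx1Cre/+), both active in the pancreas. The study's results speak of a KC mouse and a KPC mouse, and its methods of mice, without a number of lines per genotype. Library titles of batch 1 share a number that those of batch 2 lack. Whether KC cells of both batches are 1 line is therefore not known here. Genotype and line cannot be told apart, nor can the Cre drivers, which differ. In batch 1 of the labels, KC cells were sequenced as a flat culture on plastic (KC 2D, n = 6), as organoids in floating collagen at day 7 (n = 3) and day 13 (n = 5), and as organoids in Matrigel, a basement membrane extract, at day 13 (n = 3). Batch 2 held collagen organoids of day 13 from KC (n = 3) and from KPC (n = 3), which is the only comparison of genotypes within a batch. The labels number the libraries of a group as biological replicates without saying how they were separated, so that the spread between them may be technical in part.

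Cdkn2a and Cdkn2b encode brakes on cell division. p16Ink4a, from Cdkn2a, and p15Ink4b, from Cdkn2b, bind the cyclin D kinases CDK4 and CDK6 and keep the retinoblastoma protein RB active, which holds back E2F factors and entry into S phase. Through another first exon read in a different frame, Cdkn2a also gives p19Arf, which binds and inhibits the ubiquitin ligase MDM2. The locus is silenced by Polycomb complexes in many normal cells, is induced by prolonged culture, and is lost in most human pancreatic cancers. Mtap encodes methylthioadenosine phosphorylase, which recycles a by-product of polyamine synthesis into methionine and adenine. It is often deleted together with CDKN2A in human tumors, and cells without it depend on the arginine methyltransferase PRMT5.

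In GENCODE M21, on build GRCm38, the 3 genes span 174 kb. Mtap (ENSMUSG00000062937.7) lies on the plus strand at chr4:89137122-89181081. Cdkn2a (ENSMUSG00000044303.6) follows on the minus strand at chr4:89274471-89294653, 93389 bases further on, and Cdkn2b (ENSMUSG00000073802.5) on the minus strand at chr4:89306299-89311039, after a gap of 11645 bases. RefSeq places 4 start sites for the 3 genes on the same build, and the promoters are shown because the levels of these genes are the subject. Each sequence runs 5′ to 3′ on the strand of its gene, from 250 bases before the start site to 50 after it. Capitals mark GC boxes (GGGCGG, the core to which Sp factors bind) and E2F motifs (TTTCCCGC, TTTCGCGC, TTTGCCGC or TTTGGCGC), which were searched on both strands and did not overlap one another.

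Cdkn2a, Ink4a start, chr4:89282143-89282442, minus strand: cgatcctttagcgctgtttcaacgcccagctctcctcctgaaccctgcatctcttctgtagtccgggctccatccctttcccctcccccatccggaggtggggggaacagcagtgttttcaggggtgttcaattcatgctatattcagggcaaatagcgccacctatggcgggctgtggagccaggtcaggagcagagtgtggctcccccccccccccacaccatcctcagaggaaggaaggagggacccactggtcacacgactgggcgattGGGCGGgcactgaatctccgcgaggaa
Cdkn2a, Arf start, chr4:89294570-89294869, minus strand: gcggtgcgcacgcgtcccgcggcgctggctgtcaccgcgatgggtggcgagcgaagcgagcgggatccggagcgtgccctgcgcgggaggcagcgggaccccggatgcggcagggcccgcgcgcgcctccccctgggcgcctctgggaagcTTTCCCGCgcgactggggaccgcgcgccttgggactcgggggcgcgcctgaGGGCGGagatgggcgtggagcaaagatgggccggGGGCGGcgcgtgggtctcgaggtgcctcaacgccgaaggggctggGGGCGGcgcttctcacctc
Cdkn2b, chr4:89310983-89311282, minus strand: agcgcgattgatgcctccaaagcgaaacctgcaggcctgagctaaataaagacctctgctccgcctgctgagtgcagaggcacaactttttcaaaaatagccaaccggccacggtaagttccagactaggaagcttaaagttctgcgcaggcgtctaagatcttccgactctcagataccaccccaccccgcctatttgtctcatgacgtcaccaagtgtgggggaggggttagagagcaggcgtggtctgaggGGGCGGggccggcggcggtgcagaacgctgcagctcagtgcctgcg
Mtap, chr4:89137120-89137419, plus strand: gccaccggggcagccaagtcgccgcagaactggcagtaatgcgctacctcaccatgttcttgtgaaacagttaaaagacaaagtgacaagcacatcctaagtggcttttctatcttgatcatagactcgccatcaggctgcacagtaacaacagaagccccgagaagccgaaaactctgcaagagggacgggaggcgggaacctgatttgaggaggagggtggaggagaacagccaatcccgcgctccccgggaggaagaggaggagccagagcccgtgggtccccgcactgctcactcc

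The Arf start was the richest of the 4 in CpG, with 45 CpG and 77.0% GC, and 98.1% of the 32851 mouse promoters of the table had fewer CpG. The Cdkn2b start held 18 CpG, the Mtap start 14 and the Ink4a start 12, against a median of 7 over all promoters. The Arf promoter held 3 GC boxes and an E2F motif, the Ink4a and Cdkn2b promoters 1 GC box each, and the Mtap promoter neither. A GC box was present in 35.7% of all promoters and an E2F motif in 2.27%. No TATAAA, found in 13.6% of all promoters, lay in these 4 windows. These matches describe letters in the sequence and not binding.

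Counts come from the 3′ end of each polyadenylated transcript, which limits what they can say of Cdkn2a. The annotation gives Cdkn2a a transcript for p16Ink4a and another for p19Arf, which differ in the first exon and share the second, of 341 bases, and most of the last. The shared second exon opens with the 60 bases below, shown because the 2 transcripts enter them in different frames, with 0 and 1 coding bases left over from the codons before.

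Cdkn2a, shared second exon, chr4:89276926-89276985, minus strand: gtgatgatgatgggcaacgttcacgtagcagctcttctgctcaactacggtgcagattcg

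Since the table holds 1 count per gene and the shorter last exon lies wholly within the longer, a Cdkn2a count can stand for either transcript. Strand use in the counting is not given in the sources used here. In the intron of Mtap lies Gm12607, an antisense processed pseudogene, which reached at most 11 counts in a library, against at least 158 for Mtap.

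Depth and scaling bear on the small counts among these genes. Total counts ran from 1221451 to 2471058 per library (median 1845921), and levels are given in CPM, the usual counts scaled to the library total, here with TMM factors. Where no count was seen, up to 3 remain possible, or 1.15 to 3.20 CPM depending on the library. Among the 2D libraries, replicates 1 to 3 stood apart, with TMM factors between 0.738 and 0.772 against 1.04 to 1.06 in replicates 4 to 6, and the 2D comparisons of the 3 genes, the pathway count and the pathway genes with the highest and lowest change are given for each set as well. Summed ductal epithelium markers were at 7507 to 14560 CPM in every library, against 25.9 to 129.9 CPM for fibroblast markers, 3.41 to 36.6 for immune, 2.98 to 20.4 for acinar and 0 to 2.67 for endothelial markers. Fibroblast markers summed to 25.9 to 39.0 CPM in KPC and 30.5 to 45.3 in KC of batch 2, and 1 of 7 and 2 of 7 were at 0 in every library. Summed immune markers were lower in KPC, at 7.18 to 11.6 CPM against 18.7 to 21.2 CPM in KC of batch 2. Of these 5 markers, 1 in KPC and 2 in KC were at 0 in every library. Most of the sum was 1 gene, Cd68, with means of 7.41 CPM in KPC and 18.9 CPM in KC. In each of these groups 4 of 5 immune markers had at most 3 counts in every library. The part of these markers in the results was not tested.

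Cdkn2a was far higher in KPC than in KC organoids. Its counts in the 3 KPC libraries were 330, 392 and 383, or 211, 235 and 202 CPM. The 3 KC libraries of the same batch held 10, 8 and 18 counts, or 6.62, 5.58 and 11.995 CPM. The KPC libraries were all above the KC libraries and lay close together, while KC replicate 3 held more than the other two. The mean was 216 ± 16.8 CPM in KPC (SD, n = 3) and 8.06 ± 3.44 in KC (n = 3), a fitted log2 fold change of 4.73 (SE 0.297), or 26.5-fold. Counting error alone put the pooled KC level between 5.64 and 11.2 CPM and the pooled KPC level between 202 and 227 (exact 95% Poisson intervals). Without KC replicate 3 the log2 fold change was 5.12.

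Cdkn2b was higher in the same KPC libraries. It gave 208, 254 and 295 counts in KPC, or 133, 152 and 156 CPM, and 24, 22 and 18 counts in KC of the same batch, or 15.9, 15.3 and 11.995 CPM. Again every KPC library was above every KC library. The means were 147 ± 12.3 and 14.4 ± 2.11 CPM (SD, n = 3 each), a log2 fold change of 3.35 (SE 0.239), or 10.2-fold.

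Mtap differed far less in fold. KPC held 323, 344 and 387 counts, or 206, 206 and 204 CPM, and KC of batch 2 held 194, 158 and 181 counts, or 128, 110.2 and 121 CPM. The groups did not overlap, and the 3 KPC libraries were nearly equal. The means were 205 ± 1.07 and 119.7 ± 9.18 CPM (SD, n = 3 each), a log2 fold change of 0.78 (SE 0.122), or 1.72-fold, which was 0.90 when scaled by library size alone and 0.67 against both KC batches together, 8 collagen libraries of day 13. Of the 11144 tested genes, 17 had a higher log2 fold change than Cdkn2a, 44 a higher one than Cdkn2b and 869 a higher one than Mtap, and the median was 0.01. In all, 9.58% of the tested genes were called higher in KPC and 10.4% lower (adjusted p under 0.1), and in 18.9% every KPC library lay above every KC library, in 18.5% below. Nothing is read from these shares for the 3 genes, whose choice used this contrast. In bulk RNA, more cells with a transcript and more transcripts per cell cannot be told apart.

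**Figure D1:**
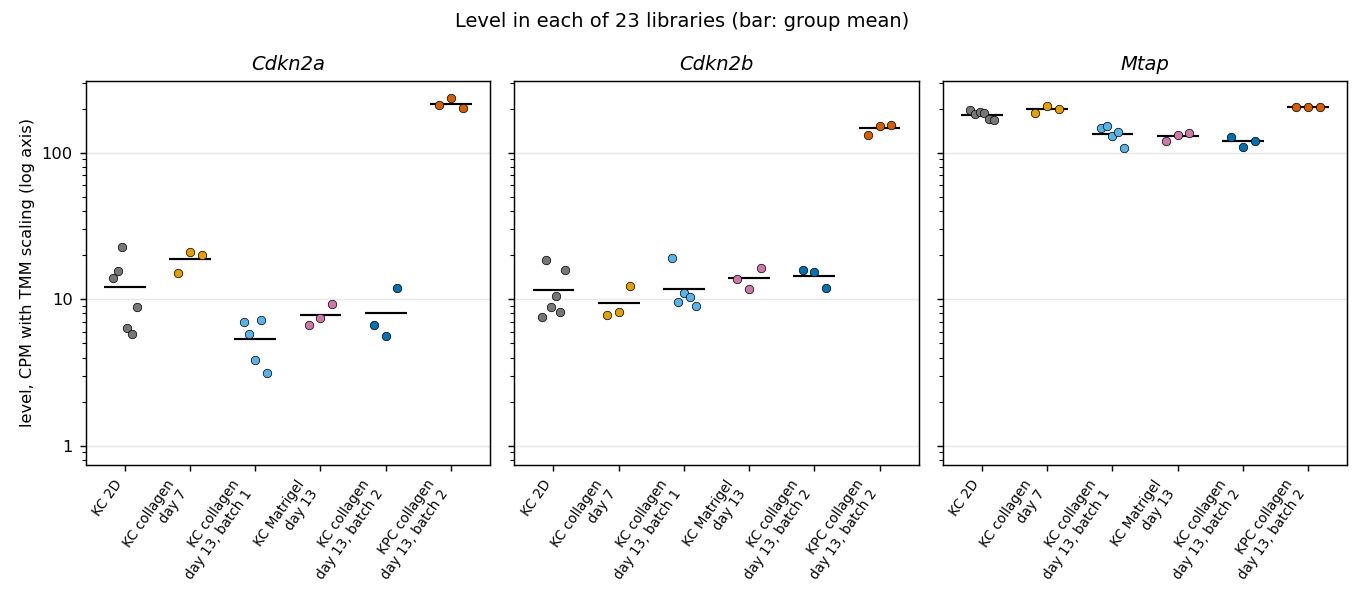
Levels of Cdkn2a, Cdkn2b and Mtap (CPM with TMM scaling, log axis) in each of the 23 libraries, as points, by group along the horizontal axis, with bars at the group means. For Cdkn2a and Cdkn2b the 3 KPC libraries sit above all 20 KC libraries, while for Mtap they sit at the level of KC collagen organoids of day 7.

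The other KC groups were then set beside KPC. The lowest KPC library, at 202 CPM, held 8.92 times the Cdkn2a level of the highest of the 20 KC libraries, a 2D library at 22.7 CPM. For Cdkn2b the lowest KPC library, at 133 CPM, held 6.99 times the highest KC library, at 19.01 CPM. For Mtap the KPC range of 204 to 206 CPM fell inside that of the KC libraries, 107 to 209 CPM. The 20 KC libraries themselves differed most in Cdkn2a, by 7.19 times from lowest to highest, then in Cdkn2b, by 2.53 times, and least in Mtap, by 1.95 times, and the part of counting error in the spread of the 2 low genes was not tested.

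Among KC groups, Cdkn2a was highest in collagen organoids of day 7. The 3 libraries of day 7 were at 15.2, 20.9 and 20.04 CPM (31, 54 and 47 counts). The 5 of day 13 in batch 1 were at 6.95, 5.75, 3.83, 7.17 and 3.15 CPM (6 to 16 counts). All libraries of day 7 were above all of day 13, with means of 18.7 ± 3.08 (SD, n = 3) and 5.37 ± 1.82 CPM (n = 5) and a log2 fold change of 1.78 (SE 0.305), which stayed between 1.47 and 1.91 over 16 other settings. The study takes day 7 for branch extension and day 13 for lumen formation.

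Mtap followed the same course at a smaller scale. It was at 187, 209 and 199 CPM at day 7 and at 148, 151, 130.2, 137 and 107 CPM at day 13, without overlap. The means were 198 ± 11.01 (SD, n = 3) and 135 ± 17.6 CPM (n = 5), and the log2 fold change was 0.55 (SE 0.105). Cdkn2b did not share it. It was at 7.85, 8.14 and 12.4 CPM at day 7 and at 19.01, 9.59, 11.01, 10.3 and 8.93 CPM at day 13, with overlap and a log2 fold change of -0.32 (SE 0.265). In this comparison 28.1% of all tested genes were called higher and 27.1% lower at day 7, and for 25.4% all libraries of day 7 lay above all of day 13, for 22.9% below, so that a separation like that of Cdkn2a and Mtap was common.

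In 2D culture Cdkn2a was split by the set of replicates. The 6 libraries ran from 5.76 to 22.7 CPM with a median of 11.4. Replicates 1 to 3 held 13.96 to 22.7 CPM and replicates 4 to 6 held 5.76 to 8.83 CPM, within or near the range of collagen organoids of day 13. The log2 fold change of 2D against collagen of day 13 was 0.98 (SE 0.312) with all 6 libraries, 1.69 with replicates 1 to 3 alone and 0.31 with replicates 4 to 6 alone. Scaled by library size alone, replicates 1 to 3 were at 10.6 to 16.6 CPM and replicates 4 to 6 at 6.08 to 9.09 CPM, so that the sets stood apart under either scaling. The share of all tested genes that stand apart in this way was not computed, so nothing particular to Cdkn2a is read from it.

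Mtap in 2D ran from 167 to 195 CPM with a median of 186, above all 5 collagen libraries of day 13. With library size alone the ranges were 139 to 196 and 111 to 161 CPM, and they overlapped. Its log2 fold change was 0.43 (SE 0.0899) and 0.20 when scaled by library size alone, a scaling that moved the median of all genes by -0.20. With replicates 1 to 3 alone it was 0.51 and with replicates 4 to 6 alone 0.34. Cdkn2b in 2D ran from 7.52 to 18.4 CPM with a median of 9.69 and overlapped the collagen libraries (log2 fold change -0.04, SE 0.231, of either sign across settings, with 0.01 and -0.10 for the 2 sets). Between 2D and collagen, 26.3% of all tested genes were called higher and 23.3% lower in 2D. The share of all tested genes without overlap in this comparison was not computed, so nothing particular to Mtap is read from its separation.

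The matrix made no separation in these genes. In Matrigel at day 13 Cdkn2a was at 6.69, 7.41 and 9.32 CPM, Cdkn2b at 13.8, 11.8 and 16.3 CPM, and Mtap at 119.6, 133 and 136 CPM. All 3 genes overlapped with collagen of day 13, and the log2 fold changes of Matrigel against collagen were 0.49 (SE 0.367), 0.22 (SE 0.251) and -0.06 (SE 0.108). Over all tested genes, 6.62% were called higher and 6.29% lower in Matrigel. Between the KC collagen organoids of batch 2 and batch 1 the 3 genes also overlapped, with log2 fold changes of 0.57 (SE 0.398), 0.28 (SE 0.270) and -0.17 (SE 0.110), while 19.3% of all genes were called higher and 18.1% lower in batch 2.

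Ordered by mean level, Cdkn2a ran from KPC through KC day 7, KC 2D, KC day 13 of batch 2, and Matrigel to KC day 13 of batch 1. Cdkn2b ran from KPC through KC day 13 of batch 2, Matrigel, KC day 13 of batch 1, and 2D to day 7. In both orders KPC stood clear of the next group, and all other neighbours overlapped. Mtap ran from KPC through KC day 7, 2D, day 13 of batch 1, and Matrigel to day 13 of batch 2, and here the single gap between neighbours without overlap was that between 2D and day 13 of batch 1, which was lost with library size alone. Over the 20 KC libraries Cdkn2a and Mtap moved together (Pearson r 0.731, Spearman rho 0.69), whereas Cdkn2b was weakly related to Cdkn2a (r -0.143) and Mtap (r -0.342). These are descriptions over libraries that share groups, depth and scaling.

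The genes around the locus were next compared, to see how far the difference between KPC and KC reached along the chromosome. Of 51 other genes within 5 Mb of the interval, 16 were tested, and 1 was called higher in KPC and 0 lower by edgeR's quasi-likelihood F-test, against the 9.58% and 10.4% of all genes given above. At an adjusted p under 0.05 none was called. The 1 called gene, Gm12669, is a processed pseudogene 2.49 Mb beyond Cdkn2b. It had 1, 3 and 5 counts in the KPC libraries and 0 in the 3 KC libraries, near the limit that a count of 0 allows. The 5 KC libraries of batch 1 held 2 to 7 counts. With all 8 KC collagen libraries of day 13 its log2 fold change was -0.0217, and the call was lost without any 1 of the 3 KC replicates or of KPC replicates 2 and 3 (adjusted p between 0.101 and 0.169).

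Within 1 Mb lie 18 other genes, of which 5 were tested and 0 called, and 0 were also called within 2 Mb. Klhl9, a ubiquitin ligase adaptor 414.7 kb before Mtap, was at 58.2 CPM in KPC and 73.1 in KC of batch 2, a log2 fold change of -0.33 (edgeR adjusted p = 0.335). The noncoding RNA Wincr1, 52.5 kb before Mtap, was at 34.1 and 34.3 CPM (log2 0.00, adjusted p = 0.999 in the same fit). Focad, a gene of the focadhesin protein, stood at 6.002 and 3.61 CPM (log2 0.70, edgeR adjusted p = 0.350).

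Gm12602, at 11 counts in all KPC and 8 in all KC libraries of batch 2, and Hacd4, at 11 and 6 counts, gave ratios of 1.19 (exact 95% interval 0.436 to 3.41) and 1.59 (0.538 to 5.22), too few counts to show a change of that size. The other 13 genes within 1 Mb were not tested. Gm12607, in the intron of Mtap, had the most counts among them. It had 6 counts in each KPC library and 1, 2 and 2 in KC of batch 2, without overlap, while the other KC libraries held 0 to 11 counts. Of the rest, Mrpl48-ps reached 3 counts, and Gm12606, Gm12608, Ifne, Gm13285, Gm13272, Gm13284, Dmrta1, Gm13283, Gm13274, Gm26566 and Zfp352 stayed at 0 to 2 counts in every library. All 5 tested genes within 1 Mb lay before Mtap. On the side of Cdkn2b the nearest tested gene was Gm12669, at 2.49 Mb, so the stretch next to Cdkn2b was not tested. After it came Tusc1, Caap1, Plaa and Ift74, at 4.02, 5.19, 5.26 and 5.3 Mb. Their log2 fold changes were 0.20, -0.10, 0.20 and 0.08, and none of them was called. In the other comparisons the same 16 genes were called as follows. At day 7 against day 13, 7 were higher and 3 lower (43.8% and 18.8%, beside 28.1% and 27.1% of all genes), and in 2D against collagen 9 and 3 (56.2% and 18.8%, beside 26.3% and 23.3%). In batch 2 against batch 1, 4 were higher and 3 lower (25% and 18.8%, beside 19.3% and 18.1%), and in Matrigel against collagen 1 and 1 (6.25% each, beside 6.62% and 6.29%).

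**Figure D2:**
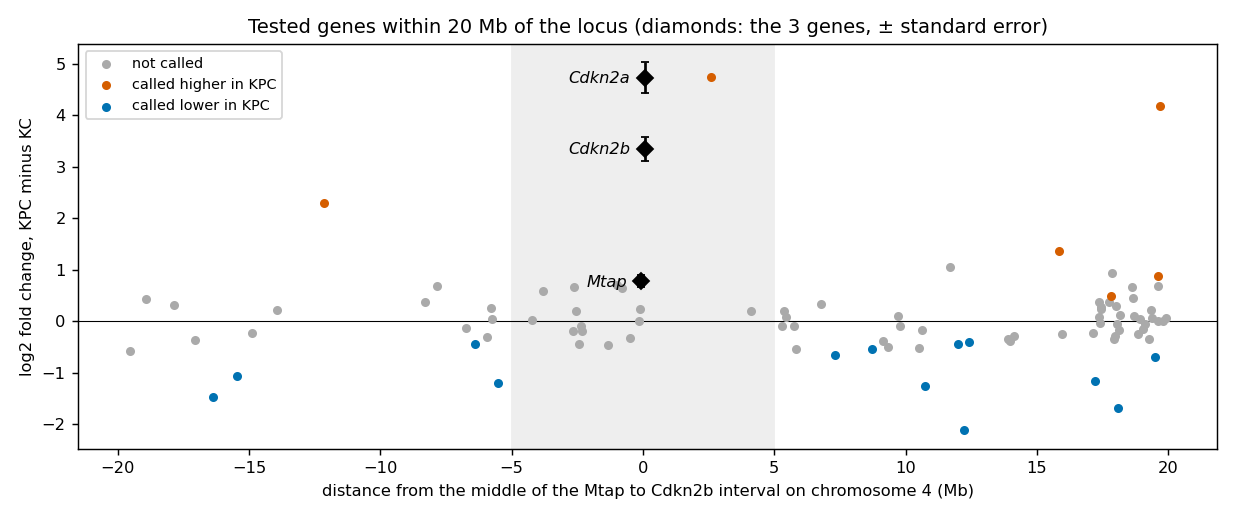
Log2 fold change of KPC minus KC organoids of batch 2 for each tested gene within 20 Mb of the locus, by distance from the middle of the interval in Mb. Orange points were called higher and blue points lower at an adjusted p under 0.1, grey points were not called, and black diamonds are the 3 genes with their standard errors. Inside the shaded 10 Mb around the locus, the 3 genes are accompanied by 1 called gene, Gm12669, drawn beside Cdkn2a at 4.74 from at most 5 counts in a library.

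Over wider stretches the median difference on the chromosome was small. Within 10 Mb, 36 genes were tested, with 1 called higher and 4 lower, beside 9.58% and 10.4% of all genes. Their median log2 fold change was -0.04. Over all 681 other tested genes of chromosome 4 there were 53 called higher and 77 lower (7.78% and 11.3%), and the median was -0.00453. Chromosome medians elsewhere ran from -0.21 for chromosome 14 to 0.39 for chromosome 6.

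Genes of the pathway in which p16Ink4a and p15Ink4b act differed in part. Besides Cdk4 and Cdk6, whose proteins both inhibitors bind, the list holds cyclins, RB and E2F genes and other inhibitors. Of 25 tested genes of the CDK4/6-RB axis, 5 were called higher in KPC and 3 lower, or 20% and 12% beside 9.58% and 10.4% of all genes, with a median log2 fold change of 0.13. Cdk4, a kinase partner of D cyclins and target of both inhibitors, was at 305, 255 and 261 CPM in KPC and 181, 165 and 171 CPM in KC of batch 2, with no overlap (log2 0.67, SE 0.148, edgeR adjusted p = 0.00236). Cdk6, its relative, was at 129, 116 and 101 CPM against 61.6, 96.9 and 94.6 CPM (log2 0.45, SE 0.163, edgeR adjusted p = 0.0643), a call that was lost without KC replicate 1 (log2 0.26, adjusted p = 0.355) and without KPC replicate 1 or 2 (adjusted p = 0.247 and 0.146).

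Of the D and E cyclins on this list, Ccnd2 and Ccne2 were called higher and the others were not called. Ccnd2, or cyclin D2, was at 1970.2 ± 57.3 CPM in KPC and 1044 ± 61.6 in KC (SD, n = 3 each), the firmest of them (log2 0.92, SE 0.179, edgeR adjusted p = 0.000728). Ccne2, or cyclin E2, which drives entry into S phase, was at 21.7 ± 1.79 and 10.8 ± 3.96 CPM (log2 1.01, SE 0.293, edgeR adjusted p = 0.02, but 0.138 without KC replicate 3). Ccnd1, or cyclin D1, was at 720.04 ± 30.3 and 548 ± 34.7 CPM and was not called (log2 0.40, SE 0.164, edgeR adjusted p = 0.111). It passed the threshold under 5 of 15 other settings. Rb1 itself was at 14.3 CPM in KPC and 19.99 in KC (log2 -0.49, edgeR adjusted p = 0.158) and was not called. Against the 8 KC libraries its log2 fold change was 0.08.

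E2f7, a repressor among the E2F factors, had 5 to 12 counts in the KPC libraries and 2 to 3 in the KC libraries. The ratio was 2.97 (exact 95% interval 1.24 to 8.15), and its call (edgeR adjusted p = 0.0444) was lost without KC replicate 1 or 3 or KPC replicate 1, the adjusted p then lying between 0.131 and 0.336. Cdkn2c, which encodes p18Ink4c, a further inhibitor of the same family, went the other way from Cdkn2a and Cdkn2b. It was at 12.1, 15.6 and 16.4 CPM in KPC and 34.4, 27.9 and 29.3 CPM in KC, without overlap (log2 -1.05, SE 0.199, edgeR adjusted p = 0.000531). Rbl2, or p130, a relative of RB, was at 24.96 ± 5.68 and 34.9 ± 5.76 CPM (log2 -0.49, edgeR adjusted p = 0.0791), a call that was lost without KC replicate 2 or 3 or KPC replicate 2 or 3 (adjusted p between 0.141 and 0.288) and under library size alone. With all 8 KC libraries its log2 fold change was -0.01.

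**Figure D3:**
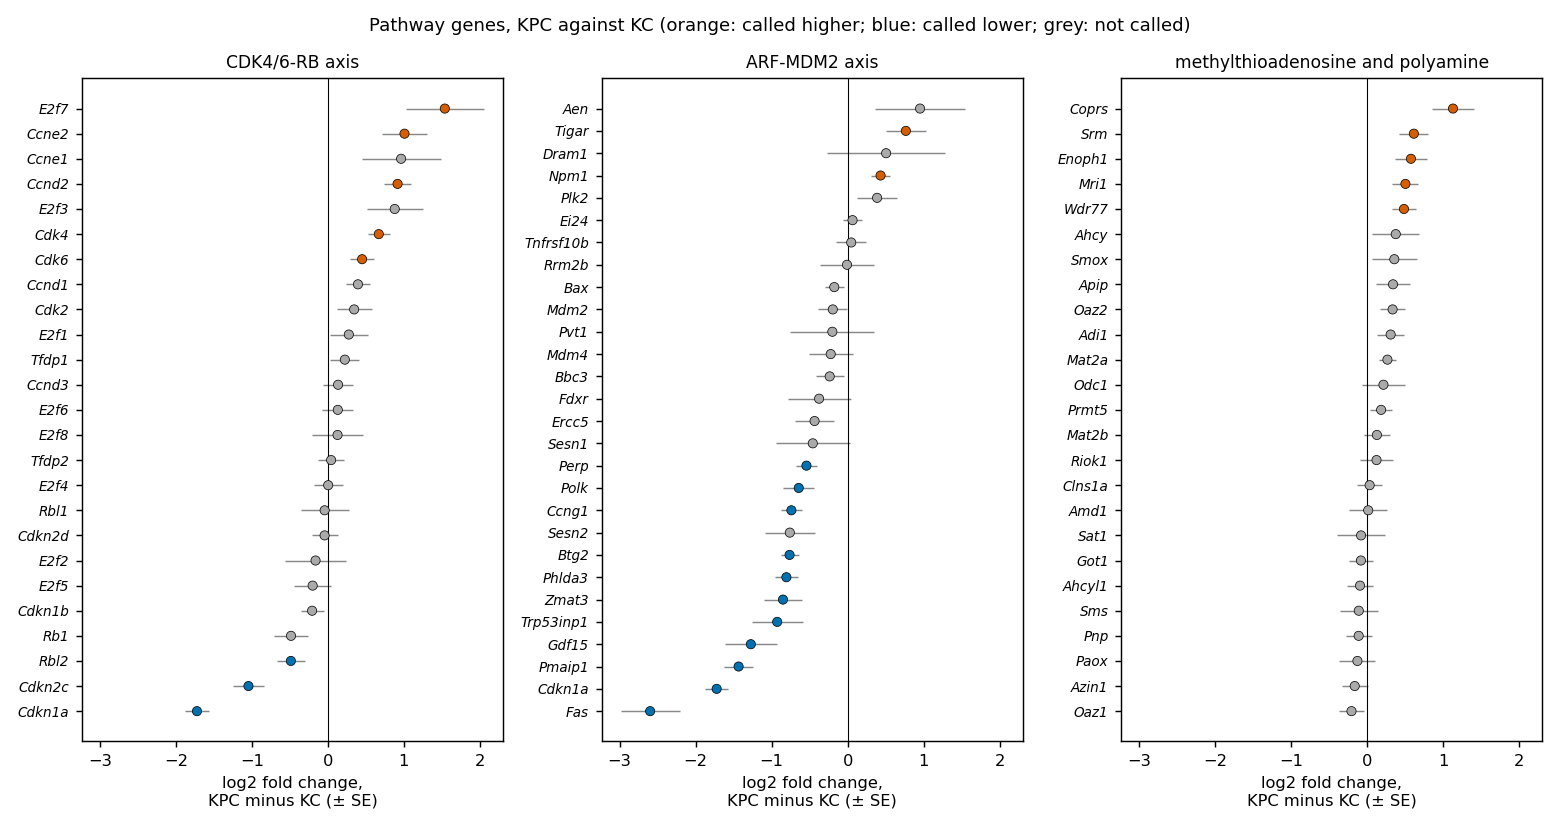
Log2 fold change of KPC minus KC organoids of batch 2, with standard errors, for tested genes of the CDK4/6-RB axis, the ARF-MDM2 axis with target genes downstream of it, and the methylthioadenosine and polyamine pathway. Orange points were called higher and blue points lower at an adjusted p under 0.1. In the middle panel, which leaves out 1 gene, most called genes lie below 0, and in the right panel 5 of 25 were called higher and 0 lower. Over all tested genes, 9.58% were called higher and 10.4% lower.

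On the list named here the ARF-MDM2 axis, most called genes fell. Besides Npm1, Mdm2 and its relative Mdm4, this list holds mostly target genes further downstream. Of 29 tested genes, 2 were called higher in KPC and 12 lower, or 6.90% and 41.4%, beside 9.58% and 10.4% of all genes. The median log2 fold change was -0.44. The lower calls include a gene not reported here. Npm1 was called higher, and Mdm2 and Mdm4 were not called, so the share is not read as one of direct Arf partners. Fas, a death receptor gene, was at 2 to 4 counts in the KPC libraries and 15 to 22 in KC, or 1.93 ± 0.581 and 12.1 ± 2.23 CPM (log2 -2.60, SE 0.388, edgeR adjusted p = 3.19e-05). Tigar, a regulator of glycolysis, was at 22.99 ± 7.24 and 13.5 ± 2.21 CPM and was called higher (log2 0.77, edgeR adjusted p = 0.0465). That call was lost without KC replicate 1 or 2 or KPC replicate 2 (adjusted p between 0.139 and 0.302). Npm1, the nucleolar partner of p19Arf, was higher, at 689 ± 22.4 against 510.4 ± 9.36 CPM (log2 0.43, edgeR adjusted p = 0.0197), and may share reads with pseudogenes. Mdm2, the ligase that p19Arf blocks, was at 26.8, 32.9 and 27.5 CPM in KPC and 40.4, 30.7 and 28.7 CPM in KC, and was not called (log2 -0.19, edgeR adjusted p = 0.562). Against the 8 KC libraries of both batches it was lower (log2 -0.66, adjusted p = 0.0219 by edgeR).

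Cdkn1a, which encodes the kinase inhibitor p21, differed between the KC batches. It was at 285, 270.5 and 357 CPM in KPC and at 1032, 1143 and 841 CPM in KC of the same batch, without overlap (log2 -1.72, SE 0.152, edgeR adjusted p = 1.26e-08). The 5 KC collagen libraries of day 13 in batch 1 were at 354, 330, 292, 382 and 475 CPM, and thus overlapped KPC. Against all 8 KC libraries the log2 fold change was -0.99 (edgeR adjusted p = 0.0320). Cdk4 was likewise at 171 to 271 CPM in batch 1, overlapping KPC. Cdkn2a and Cdkn2b overlapped between the KC batches, as given above, and their log2 fold changes against the 8 libraries were 5.09 and 3.53.

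**Figure D4:**
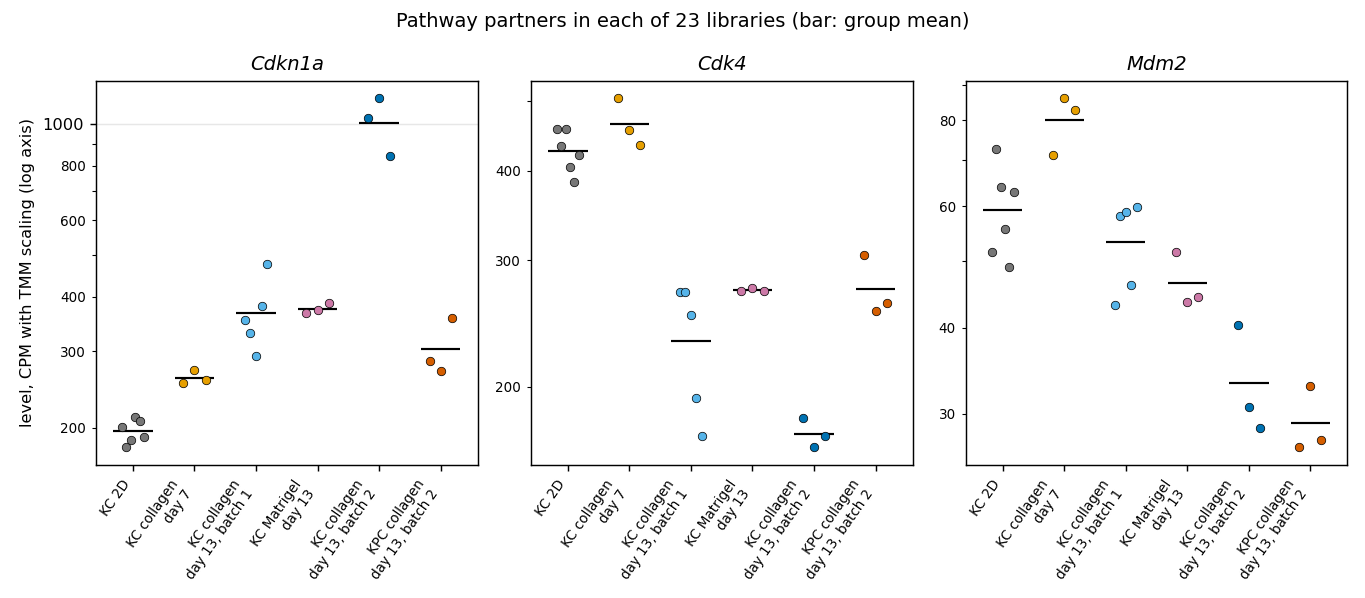
Levels of Cdkn1a, Cdk4 and Mdm2 (CPM with TMM scaling, log axes of different range) in each of the 23 libraries, by group, with bars at the group means. Cdkn1a is highest in the 3 KC collagen libraries of batch 2, at 841 to 1143 CPM, while KPC lies among the other KC groups.

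Around Mtap, the pathway of methylthioadenosine and polyamines held 25 tested genes of 26 in the table. Of these, 5 were called higher in KPC and 0 lower, or 20% and 0% beside 9.58% and 10.4% of all genes. The median log2 fold change was 0.18, and with single libraries left out 2 to 4 genes were called. Coprs, a cofactor that guides PRMT5 to histones, was at 28.2 ± 3.19 CPM in KPC and 12.9 ± 3.98 in KC (log2 1.13, SE 0.281, edgeR adjusted p = 0.00673). Srm, spermidine synthase, which releases the methylthioadenosine that MTAP consumes, was at 78.4 ± 8.12 and 51.2 ± 9.03 CPM (log2 0.61, edgeR adjusted p = 0.0291). Enoph1, an enzyme of the salvage steps after MTAP, was at 26.5 ± 0.588 and 17.8 ± 2.70 CPM (log2 0.57, edgeR adjusted p = 0.0770).

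The Srm and Enoph1 calls were near the threshold and were lost when any of several libraries was left out. Srm lost its call without KC replicate 2 or 3 or KPC replicate 1 (adjusted p between 0.110 and 0.124), and Enoph1 without KC replicate 1 or 3 or any 1 of the KPC replicates (adjusted p between 0.136 and 0.220). Against the 8 KC libraries the log2 fold changes were 0.10 for Srm and 0.22 for Enoph1, without a call. Prmt5 was at 41.6 and 36.6 CPM (log2 0.18, edgeR adjusted p = 0.477), and Mat2a, which makes S-adenosylmethionine, at 154 and 128 CPM (log2 0.26, edgeR adjusted p = 0.130), and neither was called. Mat2a passed the threshold under 3 of 15 other settings.

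Known regulators of the locus were called about as often as genes in general. Of 34 tested, 4 were called higher and 5 lower in KPC (11.8% and 14.7%, beside 9.58% and 10.4% of all genes), with a median log2 fold change of -0.12. Ezh2, the methyltransferase of the Polycomb complex PRC2, was at 128 to 158 CPM in KPC and 86.7 to 89.3 CPM in KC, without overlap (log2 0.66, SE 0.151, edgeR adjusted p = 0.00323). In KC of batch 1 it was at 38.9 to 51.5 CPM. Cbx2, a reader subunit of PRC1, had 27 counts over the KPC libraries and 3 over the KC libraries, a ratio of 7.79 (exact 95% interval 2.40 to 40.1). In KC of batch 1 it was at 1.86 to 4.31 CPM, and its log2 fold change of 2.84 (edgeR adjusted p = 0.00676) was 1.16 against the 8 KC libraries (adjusted p = 0.0950 by edgeR).

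Factors that act on the Ink4 promoters were among the called genes too. Ets1, an activator of Ink4a, was at 21.4 ± 3.87 and 13.0 ± 2.00 CPM (log2 0.71, edgeR adjusted p = 0.0586). This call was lost without KC replicate 2 or 3 or KPC replicate 1 or 2 (adjusted p between 0.132 and 0.223). Id1, which opposes it, was at 373 ± 29.5 and 592 ± 64.2 CPM (log2 -0.67, edgeR adjusted p = 0.00589), and at 370.4 to 438 CPM in KC of batch 1, so that its log2 fold change against the 8 KC libraries was -0.32, without a call. Tgfb1, the cytokine through which Cdkn2b is classically induced, was lower in KPC, at 56.3 ± 11.05 against 93.7 ± 18.5 CPM (log2 -0.74, edgeR adjusted p = 0.0504). In KC of batch 1 it was at 38.5 to 58.9 CPM, and against the 8 KC libraries its log2 fold change was -0.22, without a call. The Tgfb1 call was lost without KC replicate 1 or 2 or KPC replicate 2 or 3 (adjusted p between 0.129 and 0.175).

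In the other comparisons the 78 tested genes of the 3 pathways were counted together. At day 7 against day 13 in collagen, 41 were called higher and 10 lower (52.6% and 12.8%, beside 28.1% and 27.1% of all genes). By pathway, 15 of 25 of the CDK4/6-RB axis, 11 of 29 of the ARF-MDM2 axis and 15 of 25 of the methylthioadenosine and polyamine pathway were called higher. The highest fold change was that of Aen, which encodes a nuclease, at 16.4 ± 1.205 CPM at day 7 and 3.25 ± 1.16 at day 13 (log2 2.31, SE 0.297, edgeR adjusted p = 5.02e-07). The lowest was that of Dram1, a gene of autophagy, with 2 counts over the 3 libraries of day 7 and 32 over the 5 of day 13, a ratio of 0.0939 (exact 95% interval 0.0109 to 0.368; edgeR adjusted p = 0.00137).

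Named pathway genes differed between these KC groups in both directions. Cdk4 was at 465 ± 35.8 CPM at day 7 (SD, n = 3), 426 ± 28.8 in 2D (n = 6) and 231 ± 46.5 in collagen at day 13 of batch 1 (n = 5). Ccnd1 was at 1379.7 ± 134, 702 ± 165 and 544 ± 16.6 CPM in these groups. Ccnd2 went the other way, at 352 ± 19.4, 493 ± 128 and 976 ± 107 CPM, and was lower at day 7 (log2 -1.47, edgeR adjusted p = 9.76e-08). Prmt5 was at 79.2 ± 1.30, 57.0 ± 6.06 and 40.0 ± 4.6 CPM, and Odc1, the first enzyme of polyamine synthesis, chosen after its values were seen, at 51.1 ± 8.16, 19.7 ± 4.19 and 15.2 ± 3.12 CPM.

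In 2D against collagen of day 13, 35 of the 78 genes were called higher and 9 lower (44.9% and 11.5%, beside 26.3% and 23.3% of all genes). Pvt1, a noncoding RNA beside Myc, stood highest, at 22.9 ± 13.6 against 7.22 ± 1.75 CPM (log2 1.52, SE 0.325, edgeR adjusted p = 0.000546). Its log2 fold change was 2.28 with 2D replicates 1 to 3 alone and 0.63 with replicates 4 to 6 alone (edgeR adjusted p = 0.0501). Btg2, an antiproliferative gene, stood lowest, at 120.5 ± 11.4 against 529 ± 35.4 CPM (log2 -2.14, SE 0.0910, edgeR adjusted p = 1.06e-14), and at log2 -2.08 and -2.19 in the 2 sets, which had 43 and 40 called pathway genes in place of 44. In Matrigel against collagen 4 were called higher and 6 lower (5.13% and 7.69%, beside 6.62% and 6.29%), with Smox, spermine oxidase, highest at 40.6 ± 5.35 against 15.1 ± 2.95 CPM (log2 1.43, edgeR adjusted p = 3.50e-05) and Btg2 lowest at 186 ± 15.9 CPM (log2 -1.51, edgeR adjusted p = 9.90e-10). Between the KC batches 10 were higher in batch 2 and 17 lower (12.8% and 21.8%, beside 19.3% and 18.1%). Cdkn1b, or p27, stood highest at 128 ± 15.2 against 46.3 ± 2.53 CPM (log2 1.47, edgeR adjusted p = 2.30e-08), and Plk2 lowest at 19.2 ± 3.55 against 35.4 ± 7.61 CPM (log2 -0.89, edgeR adjusted p = 0.00414). The 2D, day 7, Matrigel and batch comparisons share the 5 collagen libraries of day 13, and the KPC and batch comparisons share the 3 KC libraries of batch 2, so that their values are not independent of one another.

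Last, the tested genes with the level pattern most like each of the 3 were taken by Pearson r of log2 CPM over all 23 libraries. For Cdkn2a these were Zyx (r 0.941), Hoxa7 (r 0.922) and Rps4l (r 0.919). For Cdkn2b they were Atp6v0e2 (r 0.940), Igf2bp3 (r 0.937) and Nkx6-3 (r 0.937). For Mtap they were Phb2 (r 0.920), Lsm8 (r 0.911) and Rcl1 (r 0.891). The likeness to Cdkn2a and Cdkn2b came largely from the KPC libraries. Hoxa7 was at 7.39 to 12.1 CPM in KPC and at 0 to 1 counts in every KC library, and Igf2bp3 was at 59.4 to 72.4 CPM in KPC and at most 6 counts in any KC library. Within the 20 KC libraries the values for the Cdkn2b genes were -0.04, 0.362 and 0.179, and those for the Cdkn2a genes 0.759, 0.382 and 0.42.

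The Mtap genes kept their likeness within KC, with r of 0.940 for Phb2, 0.901 for Lsm8 and 0.901 for Rcl1. Phb2, a mitochondrial prohibitin, was at 321 ± 9.09 CPM at day 7, 277 ± 13.1 in 2D, 178 ± 30.3 in collagen at day 13 of batch 1 and 265 ± 8.86 in KPC. Rcl1, a factor of ribosomal RNA processing, was at 35.2 ± 1.74, 29.7 ± 2.56, 17.4 ± 3.19 and 28.6 ± 0.623 CPM in the same groups. Both followed the order day 7, 2D, KPC and day 13 of batch 1, whereas Mtap in KPC stood level with day 7.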

How the data were processed

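Cdkn2a, Cdkn2b and Mtap, and the gene lists beside them, were chosen with earlier results of these data known. The authors deposited 1 table of UMI counts, whole numbers per gene and library without normalization, which they made with the Drop-seq pipeline (v1.0) from reads aligned to GRCm38 with GENCODE M25. Intervals cover counting error only. Groups follow the labels for genotype, dimension, matrix, day and batch, and every table column was matched to a library by its title.

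Counts were analysed in R 4.3.3. All 23 libraries were fitted together with edgeR 4.0.16 (filterByExpr over the 6 groups, TMM, quasi-likelihood F-test), and genes with a Benjamini-Hochberg adjusted p under 0.1 were called. CPM values use TMM factors, and correlations used their log2 after adding a prior count (2). The fit was tested on simulated data. Genes named are the 3 genes, direct partners, neighbours within 1 Mb, the nearest 5 tested on each side, and up to 3 highest and 3 lowest called per list, with the highest and lowest called pathway gene in the other comparisons. Positions are from GENCODE M21 (26396 genes matched), promoters from RefSeq GRCm38.p6.

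Alternatives were a threshold of 0.05, DESeq2 1.42.0, its size factors in edgeR, library size alone, no filter, at least 10 counts in every library, a replicate block, the compared groups alone, all 8 KC collagen libraries of day 13, other windows and each library left out. Replicate sets of the 2D libraries, and settings for the 3 genes outside the KPC comparison, were added after the data had been seen. Some genes and alleles are not reported here, though list counts cover all genes tested.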

Additional observations from a re-analysis of the deposited data

Results flagged for a closer look

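In 14 genes, the levels of the groups of 5 and 6 libraries were searched for a library far from the rest, in 28 groups in all, of which chance would mark about 1 in 20. A single value stood out, Cdkn2b in replicate 1 of the KC collagen organoids of day 13 in batch 1. It was at 19.01 CPM, with the next library at 11.01 CPM, a gap of 0.794 of the range of the 5 libraries against a critical value of 0.71. Its 41 counts compare with 17 to 23 in the other 4 libraries. Without it the log2 fold change of Cdkn2b was -0.09 in place of -0.32 at day 7 against day 13, 0.46 in place of 0.22 in Matrigel against collagen, 0.53 in place of 0.28 in batch 2 against batch 1 and 0.18 in place of -0.04 in 2D against collagen. The group levels of KPC and of KC of batch 2 do not include that library. It was, however, part of the joint fit of all libraries, from which the log2 fold change of KPC against KC came. It is also among the KC collagen libraries of day 13 from both batches, against which the log2 fold change of Cdkn2b in KPC was 3.53. KPC against KC was not refitted without it. The cause of the high value was not tested.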

How the results depend on the processing

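The differences of Cdkn2a, Cdkn2b and Mtap between KPC and KC kept their direction under every setting run. Leaving out single libraries gave log2 fold changes of 4.51 to 5.12 for Cdkn2a. Cdkn2b was at 3.53 against all 8 KC collagen libraries of day 13, and Mtap at 0.67 against them and 0.90 with library size alone. The neighbours within 5 Mb, with 1 called, gave 0 called at a threshold of 0.05 or with at least 10 counts in every library (fewer genes tested), 2 without a filter or with the replicate block, 3 with the compared groups alone or all 8 KC libraries, and 0 to 1 with single libraries left out. Windows of 1, 2 and 10 Mb held 0, 0 and 5 called genes. Gm12669 changed sign to -0.0217 with all 8 KC libraries.

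The CDK4/6-RB axis had 5 called genes in place of 8 without a filter and 5 to 7 with single libraries left out, the methylthioadenosine and polyamine genes 2 in place of 5 without a filter, 8 with the compared groups alone and 2 to 4 with libraries left out, and the regulators 14 in place of 9 with the compared groups alone. In Matrigel against collagen, 1439 genes were called, with 954 under library size alone, 952 with at least 10 counts and 901 to 1427 with libraries left out, the lowest without Matrigel replicate 1. Its pathway genes called were 10, with 4 under library size alone, 16 with the groups alone and 5 to 12 with libraries left out. Of the 22 further genes chosen by the naming rule and called in KPC against KC, 10 were called under every setting in which they were tested. With single libraries left out, 1647 to 1794 of all genes were called in this comparison in place of 2223. A lost call is thus not read as the effect of 1 library.

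Library size alone moved the median of all genes by 0.13 in KPC against KC, -0.20 in 2D against collagen and -0.18 between batches. It split the calls into 1265 higher and 598 lower in KPC (1068 and 1155 with TMM), 654 and 300 in Matrigel (738 and 701), 1692 and 3613 in 2D (2934 and 2592), and 1416 and 2602 in batch 2 (2149 and 2013). Libraries of different groups with the same replicate number did not deviate together (correlations of -0.107 to 0.0759). These correlations run over all tested genes, many with small counts, so a shared culture or preparation could go unseen. With the replicate number as a block, 2437 genes were called in KPC against KC in place of 2223, and the log2 fold changes were 4.73, 3.34 and 0.78. Depth limits the KC levels of Cdkn2a, at 6 to 54 counts a library, and Cdkn2b, at 7 to 41, and genes with at most 3 counts.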

Other observations

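Of the 9 genes most like Cdkn2a, Cdkn2b or Mtap over the 23 libraries, 7 lie on chromosome 6 (Zyx, Hoxa7, Rps4l, Atp6v0e2, Igf2bp3, Phb2 and Lsm8), as was seen only after they had been named. Chromosome 6 had the highest median of all chromosomes in KPC against KC, with a log2 fold change of 0.39 over 531 tested genes, of which edgeR called 167 higher and 23 lower. Chromosome 14 had the lowest, at -0.21 over 381 genes, with 12 called higher and 86 lower. Over all 11144 tested genes, 1068 were called higher and 1155 lower (9.58% and 10.4%). Since lines and genotypes were not separated in the design, a difference of lines and a difference of genotypes cannot be told apart in these values. Which of the pathway and regulator genes named above lie on chromosome 6 was not set out. The part of that chromosome in their calls was not tested.

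Wincr1, the noncoding RNA nearest to Mtap among well measured neighbours, followed the sets of 2D replicates as Cdkn2a did. It was at 111, 146 and 174 CPM in 2D replicates 1 to 3 and at 19.2, 28.8 and 26.5 CPM in replicates 4 to 6, while the day 7 organoids were at 72.1, 63.9 and 72.9 CPM. Gm12602, 8.9 kb before Mtap, was at 7.52, 14.6 and 14.8 CPM in the same replicates 1 to 3 and at most 2.36 CPM in replicates 4 to 6. The sets also differed in depth and in scaling factor, and the part of these in the levels was not tested. The other tested genes near the locus are not set out for these sets, nor is the share of all genes that differ between them.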
